A study of Homo sapiens with 23 samples.

Results

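The mRNAs of the translation factors themselves, the proteins that start, elongate and end protein synthesis, were followed here in the polysomal RNA of 2 lymphoma lines. The genes were taken from a fixed set of 53 symbols. It covers eIF2, eIF2B, eIF3, eIF4F with its cofactors and paralogs, the poly(A)-binding group, the elongation factors and the release factors. Probes were matched to them by gene symbol and used where all arrays of 1 or more groups had a detection p-value of 0.02 or less. Of 93 probes with values 78 were kept, which measured 51 of the 53 genes. The whole table held 14636 entries, of which 10546 were genes with a symbol. EIF4E3 had 2 probes, neither kept, and EIF4G3 had 0 probes in the probe table, so neither gene was measured.

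SUDHL-2 is an ABC-like and SUDHL-4 a GCB-like line of diffuse large B-cell lymphoma, and each is an established line, so that the arrays of a group sample 1 cell line. In the first experiment each line received 40 nM INK128, an inhibitor of the catalytic site of mTOR, for 24 h, beside its vehicle DMSO at 0.01%. In the second experiment each line received 20 mM EtOH for 48 h, in sealed flasks, beside water. Every group had 3 arrays except SUDHL-2 with EtOH, which had 2, and the 23 arrays were Illumina HumanHT-12 BeadChips. The study calls the replicates independent and does not say whether they were separate cultures, so p-values measure the spread between arrays, which may be technical.

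mRNA translation starts when eIF2, loaded with GTP, brings the initiator tRNA to the small ribosomal subunit, and eIF2B recharges eIF2 for the next round. eIF4F, made of the cap-binding protein EIF4E, the scaffold EIF4G and the helicase EIF4A, recruits the mRNA, eIF3 bridges it to the small subunit, and EIF5B joins the large subunit. mTOR acts on this machinery through the EIF4E-binding proteins and the S6 kinases, and mRNAs that open with a 5' terminal oligopyrimidine tract (5'TOP), a C followed by a run of pyrimidines, are the class most sensitive to it. Many ribosomal proteins and several elongation and initiation factors are encoded by such mRNAs.

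Polysomal RNA was the pool of gradient fractions 9 to 11, and 0.5 μg of it was labelled per array, so a value is the share of an mRNA within that pool. An equal loss of every mRNA from the pool would leave no trace, fewer cells and less RNA per cell cannot be told apart, and a change in the amount of an mRNA cannot be told apart from a change in its loading on polysomes. Levels are given as normalized log2 signal: 0 is the mean log2 signal of the kept probes of an array, and levels of different probes are not set against each other. Tests were those of limma, and an entry is called when its p-value, adjusted over all 14636 entries by the Benjamini-Hochberg method, was under 0.05. An array detected between 14699 and 17098 probes (median 15360), and the lowest correlation of an array with its group was between 0.9588 and 0.9969. The lowest value was that between SUDHL-2 INK128 replicates 1 and 3, whose deviations from the group mean had SDs of 0.299 and 0.29. Replicate 1 read low for EIF4G1, EIF4H, EIF3B and EIF3G, and replicate 3 for ABCE1, EIF3J, EIF2S1 and EIF2B3. For SUDHL-2 DMSO replicate 1 this SD was 0.255. Of 5 B-cell markers with a probe 4 were detected on all 23 arrays and PAX5 on 0, and of 4 T-cell markers 3 were detected on 0 arrays. Of the myeloid markers LYZ was detected on 18 arrays and CD14 on 10, and their part in the results was not tested. Except for 1 probe of EIF6 and the probes of EIF4E, every kept probe of the factors was detected on all 23 arrays.

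Because mTOR inhibition bears on 5'TOP mRNAs, the bases around the RefSeq start of a hand-picked part of the factors are shown first. Each line gives 15 bases before and 15 from the annotated start (RefSeq, GRCh38.p14), and capitals mark a 5'TOP-like run, a C within 2 bases of the start followed by at least 4 C or T. The first 6 genes are among the 10 measured factors known as 5'TOP mRNAs, and the other 5 passed the test in at least 1 treatment.
EEF1A1, chr6:73521018-73521047, minus strand: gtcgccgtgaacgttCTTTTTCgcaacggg
EEF2, chr19:3985449-3985478, minus strand: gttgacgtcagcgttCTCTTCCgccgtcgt
EEF1B2, chr2:206159880-206159909, plus strand: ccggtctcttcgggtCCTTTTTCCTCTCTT
EEF1G, chr11:62573877-62573906, minus strand: tctcccgggcggcttactttgcggcagcgc
EIF3F, chr11:7987322-7987351, plus strand: ttccgcttccgcctcCTTCTTTCTCgacaa
EIF4B, chr12:53006441-53006470, plus strand: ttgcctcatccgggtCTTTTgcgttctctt
EIF4A2, chr3:186783562-186783591, plus strand: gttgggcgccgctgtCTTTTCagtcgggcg
EIF2S3, chrX:24054941-24054970, plus strand: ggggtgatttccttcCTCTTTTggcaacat
EIF3K, chr19:38619173-38619202, plus strand: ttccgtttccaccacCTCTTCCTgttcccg
EIF5B, chr2:99337374-99337403, plus strand: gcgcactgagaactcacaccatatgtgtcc
EIF2B2, chr14:75002906-75002935, plus strand: gacctcgcccgccccggaagtgcaaactgt
EEF1A1, EEF2, EEF1B2, EIF3F and EIF4B held the run, EEF1B2 at the printed 1 of its 2 annotated starts, and EEF1G did not at this annotated start. EIF4A2, EIF2S3 and EIF3K, which are not on the list of known 5'TOP factors, held it too, whereas EIF5B and EIF2B2 did not. The other factors called with INK128 are not printed. Of these EIF2B3, EIF2B4, EIF5A, ETF1, GSPT1, EIF1B and PAIP2 did not hold the run, and EIF2S2 had no promoter entry. Of 53 genes 44 had a promoter entry, and 14 of them (31.8%) held the run in at least 1 window, against 3557 of 27305 genes in the whole table (13%) on the coding strand and 2955 (10.8%) on the opposite strand. Of the known 5'TOP factors with a promoter entry 5 of 6 (83.3%) held the run, and of the other factors 9 of 38 (23.7%). A match describes letters and is not a mapped start site.

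In SUDHL-2, INK128 changed few of these mRNAs: EIF2S3, EIF5B and EIF2B4 fell and PAIP2 rose. In SUDHL-4 it changed 11: EIF2B3, EIF2B2, EIF2S2, EIF5A, EIF3K, ETF1, GSPT1 and EIF5B fell, and EIF1B, EIF4B and EIF4A2 rose. Of the 11 calls of a fall, 3 stood in eIF2B, 2 in eIF2, 2 with EIF5B and 2 in termination. Of the 9 factors of the eIF4F group 0 were called lower in either line. With 1.47% of all entries called lower in SUDHL-2 and 7.17% in SUDHL-4, a count of 0 in 9 does not set this group apart. In SUDHL-2, 4 of 51 factors were called (3.62% of all entries), 1 of them higher (2.15% of all entries) and 3 lower (1.47%). In SUDHL-4, 11 of 51 were called (15.4% of all entries), 3 of them higher (8.27%) and 8 lower (7.17%). The INK128 arrays lay all apart from the DMSO arrays for 14 factors in SUDHL-2 (17.1% of all entries), above them for 2 (9.07%) and below them for 12 (7.99%). In SUDHL-4 they lay apart for 21 factors (36.6%), above for 6 (18.3%) and below for 15 (18.3%). The median log2 fold change of the 51 factors was -0.21 in SUDHL-2 and -0.15 in SUDHL-4, beside medians of 0.03 and -0.06 over all entries tested. In SUDHL-2, leaving out 1 array in turn lost the call of EIF2B4 in 11 of 12 fits (highest adjusted p = 0.128), EIF5B in 10 (0.0867), EIF2S3 in 5 (0.076) and PAIP2 in 3 (0.0635), and in the fit of the SUDHL-2 arrays alone 0 factors were called. In SUDHL-4 such fits lost EIF1B and EIF4A2 in 9 of 12, EIF2B3 in 5, ETF1 in 4 and EIF4B in 3, and the other 6 calls held in each. In both lines 27 of 51 factors (52.9%) had a value below 0, as did 27.5% of all entries.

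**Figure D1:**
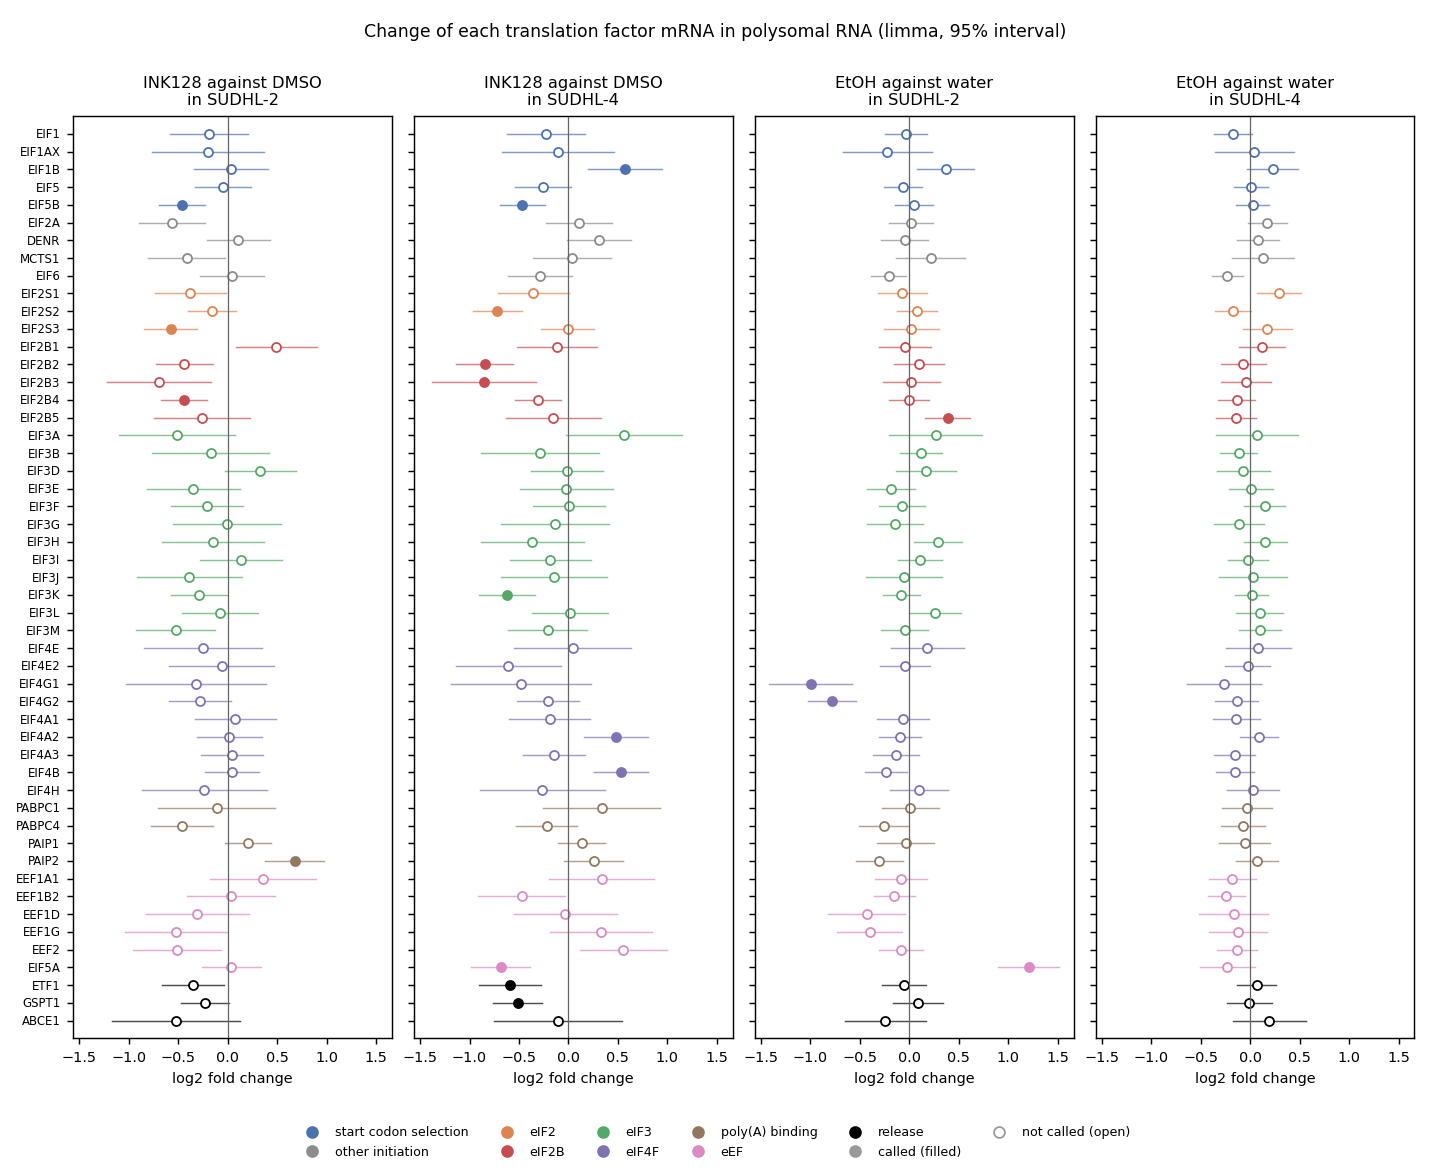
Log2 fold change of each of the 51 measured translation factors (x axis, limma, with its 95% interval as a line) for INK128 against DMSO and EtOH against water in SUDHL-2 and SUDHL-4, with genes down the page coloured by complex and filled where called at adjusted p under 0.05. With INK128 36 factors lie below 0 in SUDHL-2, beside 6314 of all 14636 entries, and 35 in SUDHL-4, beside 8593 entries. With EtOH in SUDHL-4 0 of 51 factors are filled.

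The eIF2 complex is the trimer that carries the initiator tRNA, and each line had 1 subunit that fell. EIF2S3, the gamma subunit that binds GTP and the tRNA, read 2.02, 2.04 and 1.84 on the SUDHL-2 INK128 arrays, against 2.63, 2.51 and 2.48 on the DMSO arrays. All 3 INK128 arrays lay below all 3 DMSO arrays (log2 fold change -0.57, SE 0.12, adjusted p = 0.0252). In SUDHL-4 the same gene read 2.83, 2.78 and 2.92 with INK128 and 3.09, 2.77 and 2.69 with DMSO, with a log2 fold change of -0.01 (adjusted p = 0.972). EIF2S2, the beta subunit, fell in SUDHL-4, where it read -0.88, -0.78 and -0.90 with INK128, against -0.12, -0.13 and -0.16 with DMSO. These groups stood far apart and each was tight (log2 fold change -0.72, SE 0.11, adjusted p = 0.00124), and in SUDHL-2 the groups overlapped, with a value of -0.16 (adjusted p = 0.554). EIF2S1, the alpha subunit that stress kinases phosphorylate, read 0.67, 0.61 and 0.16 in SUDHL-2 with INK128, against 1.05, 0.83 and 0.68 with DMSO, at -0.38 (adjusted p = 0.253). In SUDHL-4 it read 0.20, -0.15 and 0.35 with INK128 and 0.49, 0.46 and 0.52 with DMSO, at -0.35 (adjusted p = 0.189). All its INK128 arrays lay below the DMSO arrays in both lines without passing the test. The difference of the INK128 response between lines was itself tested by limma, and 0 of 51 factors passed, where 4.32% of all entries were called (2.19% higher and 2.14% lower in SUDHL-2). At an unadjusted p under 0.05 there were 13, beside 2754 of all 14636 entries.

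eIF2B is the exchange factor that reloads eIF2 with GTP, and 3 of its 5 subunits fell in 1 line or the other. EIF2B2, the beta subunit, read 1.47, 1.69 and 1.86 on the SUDHL-4 INK128 arrays, against 2.67, 2.31 and 2.58 on the DMSO arrays, without overlap (log2 fold change -0.85, SE 0.13, adjusted p = 0.00115). In SUDHL-2 it read 1.97, 2.03 and 1.85 with INK128 and 2.47, 2.30 and 2.39 with DMSO, also apart, but the difference missed the threshold at -0.44 (adjusted p = 0.0922). EIF2B3, the gamma subunit, read 0.34, 0.53 and 1.19 in SUDHL-4 with INK128, against 1.55, 1.36 and 1.71 with DMSO (log2 fold change -0.85, SE 0.24, adjusted p = 0.0315). INK128 replicate 3 lay nearest to the controls. In SUDHL-2 EIF2B3 had the lowest value of all 51 factors, -0.69 (adjusted p = 0.145), and INK128 replicate 3 stood apart there, at the low end. EIF2B4, the delta subunit, fell in SUDHL-2, where it read 2.04, 2.27 and 2.12 with INK128 and 2.70, 2.48 and 2.56 with DMSO (log2 fold change -0.44, SE 0.11, adjusted p = 0.044). Its value in SUDHL-4 was -0.31 (adjusted p = 0.0758). EIF2B1, the alpha subunit, and EIF2B5, the catalytic epsilon subunit, did not pass in either line. EIF2B1 was the 1 subunit above 0 in SUDHL-2, at 0.49 (adjusted p = 0.179). Its INK128 arrays there (1.96, 1.94 and 2.365) all lay above its DMSO arrays (1.20, 1.77 and 1.81).

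Of the 5 factors of start codon selection and subunit joining, EIF5B was the 1 factor of all 51 called in the same direction in both lines. EIF5B, the GTPase that joins the ribosomal subunits, read 1.27, 1.40 and 1.28 in SUDHL-2 with INK128, against 1.92, 1.79 and 1.62 with DMSO (log2 fold change -0.46, SE 0.11, adjusted p = 0.0349). The SUDHL-4 arrays read 1.00, 0.91 and 0.88 with INK128 and 1.40, 1.42 and 1.37 with DMSO (log2 fold change -0.47, SE 0.11, adjusted p = 0.0106). Both pairs of groups stood apart and the size of the fall was close in the 2 lines. The SUDHL-2 call was lost in 10 of 12 fits without 1 array, and with a replicate block (adjusted p = 0.0649). The share of all entries called in the same direction in both lines was not counted. EIF1B, a close paralog of the scanning factor EIF1, rose in SUDHL-4, reading 3.61, 3.46 and 3.83 with INK128 and 3.04, 2.93 and 3.22 with DMSO (log2 fold change 0.57, SE 0.17, adjusted p = 0.0402), while EIF1 itself had a value of -0.22 (adjusted p = 0.528).

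**Figure D2:**
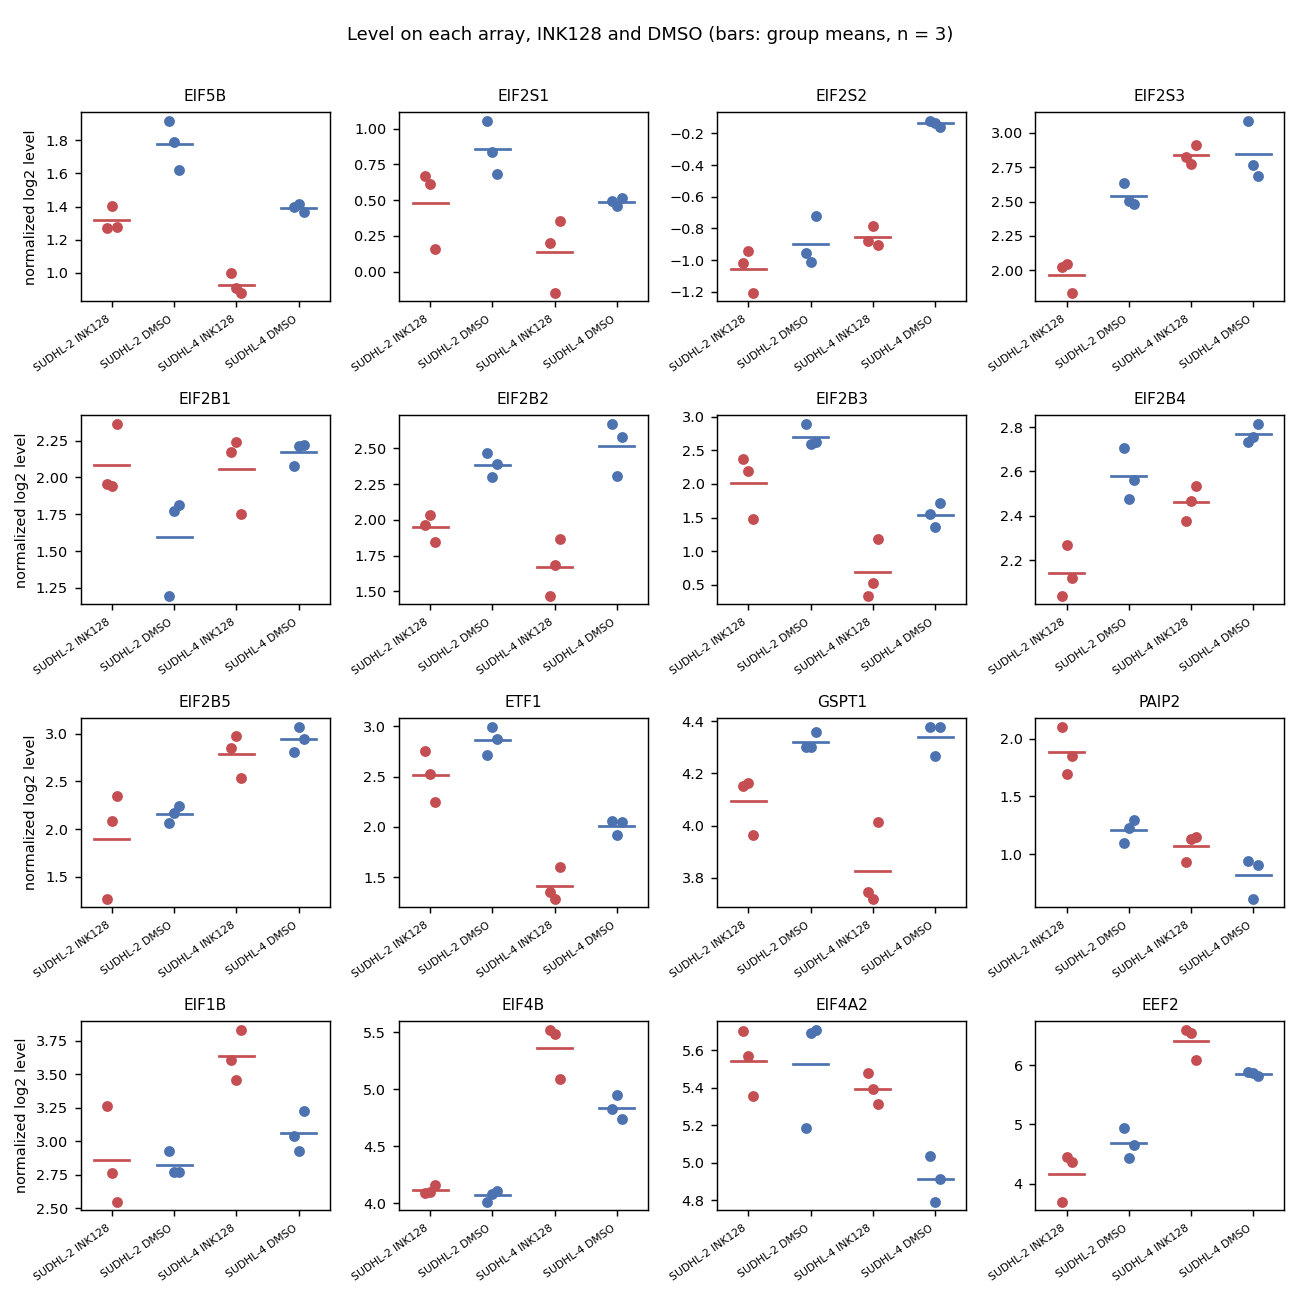
Normalized log2 level (y axis, own scale in each panel) on each array of 16 translation factors, with INK128 (red) left of DMSO (blue) for SUDHL-2 and then SUDHL-4; points are arrays and bars are means of 3. EIF5B is lower with INK128 in both lines, EIF2S3 in SUDHL-2 and EIF2S2 in SUDHL-4, and PAIP2 is higher in SUDHL-2.

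Most of eIF3, the many-subunit platform that links the mRNA to the small subunit, did not pass. With INK128 0 of 12 subunits were called in SUDHL-2 (3.62% of all entries) and 1 of 12 in SUDHL-4 (15.4%), with medians of -0.19 and -0.14. EIF3K, a core subunit, was the exception, reading 4.57, 4.28 and 4.19 in SUDHL-4 with INK128, against 4.98, 4.98 and 4.94 with DMSO (log2 fold change -0.62, SE 0.13, adjusted p = 0.00673). Its SUDHL-2 value was -0.29 (adjusted p = 0.26), again with the groups apart. EIF3A, the largest core subunit, took opposite signs in the lines, -0.52 (adjusted p = 0.355) in SUDHL-2 and 0.56 (adjusted p = 0.204) in SUDHL-4, and neither value passed.

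In the eIF4F group with its cofactors and paralogs, 0 of 9 factors were called in SUDHL-2 and 2 in SUDHL-4, both higher. EIF4E2 was lower in SUDHL-4 without a call, at -0.61 (adjusted p = 0.126). It read 3.065, 3.18 and 2.51 there with INK128 and 3.52, 3.50 and 3.55 with DMSO, without overlap. With a replicate block it was called (adjusted p = 0.0461). EIF4B, the cofactor of the helicase and a known 5'TOP mRNA, read 5.52, 5.48 and 5.09 in SUDHL-4 with INK128, against 4.83, 4.95 and 4.74 with DMSO (log2 fold change 0.53, SE 0.13, adjusted p = 0.0137). EIF4A2, a helicase paralog, read 5.48, 5.39 and 5.31 with INK128 and 5.04, 4.79 and 4.92 with DMSO (log2 fold change 0.48, SE 0.15, adjusted p = 0.0495). Both groups were apart for each gene, and both calls depended on the scaling: with median centring EIF4B was at 0.28 (adjusted p = 0.275) and EIF4A2 at 0.24 (adjusted p = 0.579). In SUDHL-2 EIF4B had a value of 0.04 (adjusted p = 0.929). EIF4A2 read 5.70, 5.57 and 5.36 there with INK128 and 5.19, 5.69 and 5.71 with DMSO, overlapping, at 0.01 (adjusted p = 0.976), with a sign that turned under quantile normalization and median centring. EIF4E, the cap-binding protein, is read by dim probes that were not detected on every array, and its groups overlapped in both lines. It read -0.34, -1.27 and -1.45 in SUDHL-2 with INK128 and -0.38, -0.996 and -0.92 with DMSO, at -0.25 (adjusted p = 0.774), and in SUDHL-4 -1.74, -1.63 and -1.005 with INK128 and -1.48, -1.59 and -1.42 with DMSO, at 0.04 (adjusted p = 0.937), below 0 there with quantile normalization. EIF4G1, the scaffold, read 2.38, 3.63 and 4.12 on the SUDHL-2 INK128 arrays and 3.85, 3.47 and 3.77 on the DMSO arrays. INK128 replicate 1 lay far below the other 2, and the value of -0.32 (adjusted p = 0.749) became 0.18 (adjusted p = 0.627) without it. In SUDHL-4 EIF4G1 read 4.15, 4.36 and 3.84 with INK128 and 4.57, 4.61 and 4.63 with DMSO, apart, at -0.48 (adjusted p = 0.416). EIF4A1, the main helicase, read 4.31, 4.68 and 4.77 in SUDHL-2 with INK128 and 4.05, 4.83 and 4.64 with DMSO, at 0.08 (adjusted p = 0.929), below 0 with quantile normalization or median centring. In SUDHL-4 it read 4.30, 4.19 and 3.96 with INK128 and 4.32, 4.33 and 4.36 with DMSO, at -0.19 (adjusted p = 0.643). There 1 of its 2 probes fell, at -0.44 (adjusted p = 0.0363), and the other, whose deposited signal of 15866 to 22254 lay near the brightest signal of an array, had 0.06 (adjusted p = 0.911).

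Among the poly(A)-binding group PAIP2, an inhibitor of the poly(A)-binding protein, rose in SUDHL-2. It read 2.10, 1.70 and 1.85 with INK128, against 1.09, 1.22 and 1.30 with DMSO, without overlap (log2 fold change 0.68, SE 0.14, adjusted p = 0.0196). In SUDHL-4 it had 0.25 (adjusted p = 0.268). PABPC1, the poly(A)-binding protein itself, read 3.62, 3.05 and 2.81 in SUDHL-2 with INK128 and 3.89, 2.98 and 2.96 with DMSO, at -0.11 (adjusted p = 0.929). The levels in SUDHL-4 were 2.94, 3.12 and 3.68 with INK128 and 2.92, 2.80 and 3.01 with DMSO, at 0.34 (adjusted p = 0.524). Its groups overlapped in both lines, and the brightest of its probes alone gave the opposite sign in each. PABPC4, its inducible paralog, had -0.46 (adjusted p = 0.0986) and -0.22 (adjusted p = 0.392).

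The elongation factors did not move as a block. EEF2, which translocates the ribosome, read 3.70, 4.45 and 4.37 in SUDHL-2 with INK128 and 4.95, 4.44 and 4.66 with DMSO, with a value of -0.51 (adjusted p = 0.204) and overlapping groups. In SUDHL-4 it read 6.60, 6.54 and 6.09 with INK128 and 5.89, 5.86 and 5.81 with DMSO, apart and higher, at 0.55 (adjusted p = 0.0894). It passed there in 4 of 15 alternative settings, among them the fit of the SUDHL-4 arrays alone, at 0.55 (adjusted p = 0.0225). Over these settings its SUDHL-4 value ran from 0.275 to 0.696, with adjusted p up to 0.47. The response of EEF2 differed by -1.07 between lines, SUDHL-2 minus SUDHL-4 (adjusted p = 0.0573). Without SUDHL-2 INK128 replicate 1 the SUDHL-2 value of EEF2 was -0.275. EEF1A1, which delivers aminoacyl-tRNA, read 4.36, 4.69 and 5.13 in SUDHL-2 with INK128 and 3.88, 4.67 and 4.55 with DMSO, at 0.36 (adjusted p = 0.526), below 0 with quantile normalization. The SUDHL-4 arrays read 5.64, 5.50 and 4.91 with INK128 and 4.93, 5.06 and 5.06 with DMSO, also overlapping, at 0.33 (adjusted p = 0.465). Of its 4 probes 3 read a deposited signal between 17084 and 29624, near the brightest signal of an array (21342 to 29624), which limits what they can show, and the dimmer probe rose in SUDHL-4, at 0.76 (adjusted p = 0.0171). EEF1B2, its exchange factor, had 4 probes, of which in SUDHL-4 2 fell, at -1.15 (adjusted p = 0.00369) and -0.75 (adjusted p = 0.00489), and 2 did not, at -0.06 (adjusted p = 0.912) and 0.07 (adjusted p = 0.884). EIF5A, which helps the ribosome through difficult peptide bonds, fell in SUDHL-4, reading 2.27, 2.44 and 2.49 with INK128 and 3.02, 3.27 and 2.96 with DMSO (log2 fold change -0.69, SE 0.14, adjusted p = 0.00516). In SUDHL-2 EIF5A had 0.04 (adjusted p = 0.929). EEF1D and EEF1G, the other exchange subunits, were called in neither line, with -0.31 and -0.52 in SUDHL-2, and -0.03 and 0.33 for SUDHL-4.

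Of the 3 factors of termination, ETF1 and GSPT1 fell in SUDHL-4. ETF1, which recognises the stop codon, read 1.35, 1.28 and 1.60 with INK128, against 2.06, 1.92 and 2.04 with DMSO (log2 fold change -0.59, SE 0.14, adjusted p = 0.0148). GSPT1, its GTPase partner, read 3.74, 3.72 and 4.01 with INK128 and 4.38, 4.27 and 4.38 with DMSO (log2 fold change -0.51, SE 0.11, adjusted p = 0.00844). For both genes all INK128 arrays lay below all DMSO arrays, and in SUDHL-2 ETF1 had -0.35 (adjusted p = 0.215) and GSPT1 -0.23 (adjusted p = 0.323). ABCE1, which recycles the ribosome, had -0.53 (adjusted p = 0.403) in SUDHL-2 and -0.10 (adjusted p = 0.859) in SUDHL-4.

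Of the 4 remaining initiation factors 0 were called in either line by limma. EIF2A, which can deliver initiator tRNA without eIF2, read 3.86, 3.49 and 3.25 in SUDHL-2 with INK128, against 4.09, 4.05 and 4.14 with DMSO, at -0.56 (adjusted p = 0.0675), and had 0.10 (adjusted p = 0.802) in SUDHL-4. MCTS1 and DENR, which act as a pair in reinitiation, took opposite signs in SUDHL-2, at -0.41 (adjusted p = 0.249) and 0.11 (adjusted p = 0.859). EIF6, which keeps the ribosomal subunits apart, had 0.04 (adjusted p = 0.929) there. In SUDHL-4 MCTS1 and DENR both lay above 0. DENR read 1.07, 1.15 and 1.41 with INK128, all above the 0.81, 0.94 and 0.95 with DMSO. Of its 2 probes 1 was called higher there, at 0.51, and the other had 0.11. Members not named with INK128 were not called, and their values stand in the plot of changes by complex.

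The 10 measured factors known as 5'TOP mRNAs were read beside the other 41 with INK128. Their median log2 fold change was -0.18 in SUDHL-2, against -0.23 for the other 41 factors, and 0.17 in SUDHL-4, against -0.19. In SUDHL-2 0 of the 10 were called, and in SUDHL-4 1 was, EIF4B, higher. Grouped instead by the run at the RefSeq start, the 14 genes with it had a median of -0.24 in SUDHL-2, against -0.22 for the 28 measured genes without it, and of -0.01 in SUDHL-4, against -0.21. These are descriptions of small lists at 24 h and carry no test. The list medians are given for the scaling used here alone, and its part in the SUDHL-4 contrast was not tested. Over the alternative settings the SUDHL-4 value of EEF2 ran from 0.275 to 0.696 and that of EIF4B from 0.279 to 0.684. EEF1A1 ran from 0.087 to 0.486 there and PABPC1 from -0.105 to 0.37. With median centring the SUDHL-4 median of all measured factors was -0.322, against -0.149 with the scaling used here.

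A list of regulators of these factors was read beside them. Of 26 measured regulators 3 were called in SUDHL-2, 1 of them higher, and 8 in SUDHL-4, 4 of them higher. Over all entries 3.62% were called in SUDHL-2 (2.15% higher, 1.47% lower) and 15.4% in SUDHL-4 (8.27% higher, 7.17% lower). In SUDHL-2 PELO, which rescues stalled ribosomes, fell (log2 fold change -0.79, SE 0.12, adjusted p = 0.00431), as did DPH5, which modifies EEF2 (log2 fold change -0.88, SE 0.16, adjusted p = 0.0126), and EIF2AK1, the heme-regulated eIF2 kinase, rose (log2 fold change 0.55, SE 0.11, adjusted p = 0.0201). In SUDHL-4 EIF4EBP3, a binding protein of EIF4E, rose (log2 fold change 0.84, SE 0.13, adjusted p = 0.000906), as did SECISBP2, which serves selenoprotein synthesis (log2 fold change 0.74, SE 0.13, adjusted p = 0.00266), and EIF2AK3, the eIF2 kinase of the endoplasmic reticulum (log2 fold change 1.12, SE 0.22, adjusted p = 0.00444).

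With EtOH, EIF4G1 and EIF4G2 fell and EIF5A and EIF2B5 rose in SUDHL-2, while in SUDHL-4 0 factors passed. In SUDHL-2 4 of 51 factors were called (16.2% of all entries), 2 higher (8.94%) and 2 lower (7.24%). In SUDHL-4 limma called 0 of 51 (0.389% of all entries, 0.307% higher and 0.0820% lower). There 3 of 51 had an unadjusted p under 0.05, beside 2048 of all 14636 entries. EtOH and water arrays did not overlap for 16 factors in SUDHL-2 (38.1% of all entries), with EtOH higher for 5 (23.3%) and lower for 11 (14.8%). In SUDHL-4 they did not overlap for 8 (36.6%), with EtOH higher for 3 (12.1%) and lower for 5 (24.6%). The median log2 fold change of the factors was -0.05 in SUDHL-2 and -0.02 in SUDHL-4, beside 0.05 and -0.03 over all entries.

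EIF4G1, the scaffold of eIF4F, read 3.32 and 2.97 on the 2 SUDHL-2 EtOH arrays, against 4.31, 3.94 and 4.17 on the water arrays. The groups lay far apart (log2 fold change -0.998, SE 0.19, adjusted p = 0.00495), and both of its probes fell, at -0.76 (adjusted p = 0.0116) and -1.23 (adjusted p = 0.00266). Without EtOH replicate 2 the value was -0.82 (adjusted p = 0.07). The call was also lost with no detection filter, at -0.48 (adjusted p = 0.0628), and in 1 fit of all 23 arrays, at -0.998 (adjusted p = 0.0521). In SUDHL-4 it read 3.62, 4.35 and 4.10 with EtOH and 4.15, 4.34 and 4.37 with water, with overlap and a value of -0.26 (adjusted p = 0.55). The difference of its EtOH response between lines was -0.73 (adjusted p = 0.129). As a replicate block the title numbers gave -0.72 (adjusted p = 0.0437) and the sample name numbers -0.72 (adjusted p = 0.0468). Which SUDHL-4 arrays pair was not settled by the data.

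EIF4G2, a scaffold homolog that lacks the EIF4E site, read 2.37 and 2.47 in SUDHL-2 with EtOH, against 3.26, 3.33 and 3.01 with water (log2 fold change -0.78, SE 0.11, adjusted p = 0.00104). This mean over 3 probes hid an unequal response. Probe ILMN_2279635 read -0.83 and -0.85 with EtOH and 1.57, 1.30 and 1.02 with water (log2 fold change -2.13, SE 0.30, adjusted p = 0.000929), whereas the 2 brighter probes had -0.14 (adjusted p = 0.59) and -0.06 (adjusted p = 0.806). The call thus rested on 1 of 3 probes, and with the brightest probe alone the value was -0.06 (adjusted p = 0.808). In SUDHL-4 the same probe read -0.04, 1.38 and 0.67 with EtOH and 1.29, 1.09 and 1.16 with water, where EtOH replicate 1 alone lay below 0.

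**Figure D3:**
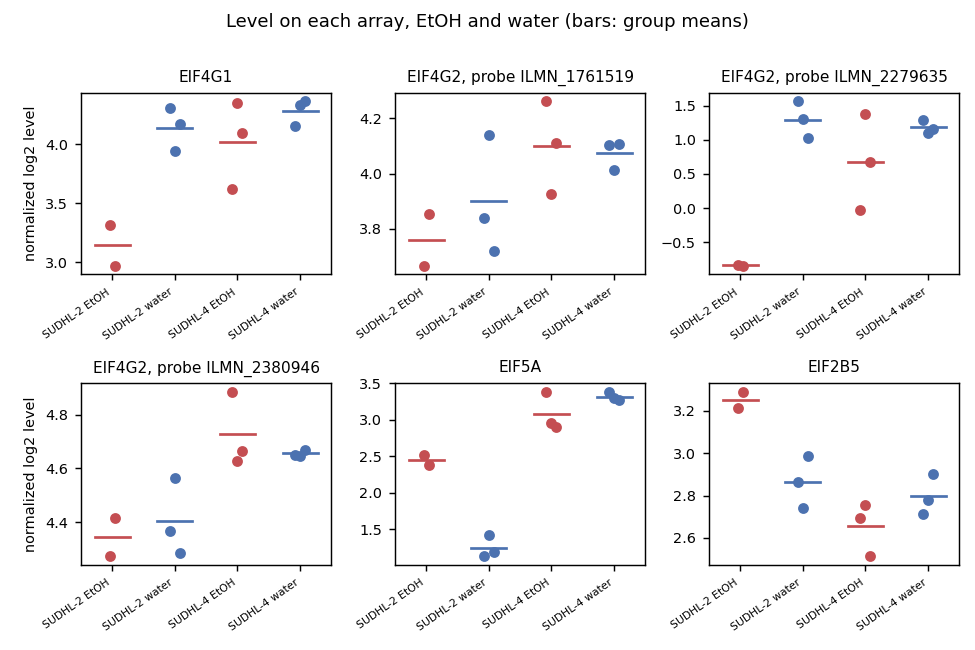
Normalized log2 level (y axis, own scale in each panel) on each array of EIF4G1, the 3 probes of EIF4G2, EIF5A and EIF2B5, with EtOH (red) left of water (blue) for SUDHL-2 (2 and 3 arrays) and then SUDHL-4 (3 and 3); bars are group means. EIF4G1 and 1 of the 3 EIF4G2 probes are lower and EIF5A is higher with EtOH in SUDHL-2, while the other 2 EIF4G2 probes overlap between the groups.

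EIF5A had the largest change of the 51 gene means over the 4 treatment comparisons. In SUDHL-2 its 1 probe read 2.52 and 2.38 with EtOH, against 1.12, 1.42 and 1.18 with water (log2 fold change 1.21, SE 0.14, adjusted p = 0.00032), and the EtOH arrays lay well above the water arrays. The levels in SUDHL-4 were 3.39, 2.96 and 2.90 with EtOH and 3.38, 3.30 and 3.26 with water, where 1 EtOH array lay level with the controls, for a value of -0.23 (adjusted p = 0.46). DHPS, the enzyme that starts the hypusine modification EIF5A depends on, rose in SUDHL-2 too (log2 fold change 0.56, SE 0.08, adjusted p = 0.000999). EIF2B5, the catalytic subunit of eIF2B, rose in SUDHL-2, reading 3.21 and 3.29 with EtOH and 2.87, 2.74 and 2.99 with water (log2 fold change 0.39, SE 0.10, adjusted p = 0.0257), and had -0.14 (adjusted p = 0.548) in SUDHL-4. Its call was lost without any one of 4 of the 11 arrays.

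With EtOH eIF2 had 0 of 3 subunits called in either line, and eIF3 had 0 of 12 in either line. Over all entries 16.2% were called in SUDHL-2 and 0.389% in SUDHL-4, so these counts say little about the 2 complexes. EIF2S1 read 0.12 and 0.18 in SUDHL-2 with EtOH and 0.03, 0.40 and 0.22 with water, at -0.07 (adjusted p = 0.793). In SUDHL-4 it read 0.44, 0.49 and 0.60 with EtOH, all above the 0.20, 0.10 and 0.34 with water, at 0.30 (adjusted p = 0.216). With the title numbers as a replicate block EIF3H, another eIF3 subunit, passed in SUDHL-2 (log2 fold change 0.39, adjusted p = 0.0275), as did EEF1D (-0.40, adjusted p = 0.046).

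EIF4E, EIF4A1, EIF4A2 and PABPC1 overlapped between EtOH and water in both lines, while EIF4B and EIF4A3 were apart and lower in SUDHL-2 without a call, at -0.23 (adjusted p = 0.133) and -0.13 (adjusted p = 0.491). EIF4E read -1.33 and -1.08 in SUDHL-2 with EtOH and -1.39, -1.03 and -1.74 with water, at 0.18 (adjusted p = 0.576), and -0.92, -1.10 and -0.93 in SUDHL-4 with EtOH and -1.10, -1.12 and -0.98 with water, at 0.08 (adjusted p = 0.782). EIF4A1 read 4.50 and 4.46 in SUDHL-2 with EtOH and 4.68, 4.29 and 4.67 with water, at -0.06 (adjusted p = 0.806), and 4.24, 4.46 and 4.33 in SUDHL-4 with EtOH and 4.38, 4.54 and 4.53 with water, at -0.14 (adjusted p = 0.635). The helicase paralog EIF4A2 read 4.80 and 4.95 in SUDHL-2 with EtOH and 5.07, 4.95 and 4.90 with water, at -0.09 (adjusted p = 0.639), and 5.17, 4.98 and 5.12 in SUDHL-4 with EtOH and 4.89, 5.10 and 5.00 with water, at 0.09 (adjusted p = 0.666). PABPC1 read 2.10 and 2.50 in SUDHL-2 with EtOH and 2.17, 2.47 and 2.23 with water, at 0.01 (adjusted p = 0.97), and 2.88, 2.78 and 2.95 in SUDHL-4 with EtOH and 2.83, 2.86 and 3.02 with water, at -0.03 (adjusted p = 0.901).

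All 6 elongation factors had values below 0 in SUDHL-4 without a call, and 8203 of all 14636 entries lay below 0 there. EEF2 read 5.04 and 4.77 in SUDHL-2 with EtOH and 4.94, 4.96 and 5.07 with water, at -0.08 (adjusted p = 0.706), and 5.37, 5.47 and 5.58 in SUDHL-4 with EtOH and 5.52, 5.66 and 5.64 with water, at -0.13 (adjusted p = 0.59). EEF1A1 read 4.63, 4.62 and 4.61 in SUDHL-4 with EtOH, all below the 4.70, 4.89 and 4.80 with water, at -0.18 (adjusted p = 0.511). With median centring EEF1A1, EEF2, EIF4A1 and EIF4A2 lay above 0 in SUDHL-2. In SUDHL-2 EEF1A1 read 4.22 and 4.08 with EtOH and 4.35, 3.97 and 4.38 with water, at -0.08 (adjusted p = 0.766), while its dimmer probe fell, at -0.49 (adjusted p = 0.0383). The gene mean of EEF1B2 was -0.15 (adjusted p = 0.34), while 1 of its 4 probes fell, at -0.61 (adjusted p = 0.00274). Of the 26 regulators 10 were called in SUDHL-2, 7 of them higher, beside 16.2% of all entries (8.94% higher, 7.24% lower). Among them were PPP1R15A, which directs the eIF2 phosphatase and fell (log2 fold change -0.71, SE 0.11, adjusted p = 0.0017), and CYFIP1, a partner of EIF4E, which rose (log2 fold change 0.55, SE 0.10, adjusted p = 0.00325). In SUDHL-4 0 regulators were called by limma, beside 0.389% of all entries called. At an unadjusted p under 0.05 were 6 of the 26, beside 2048 of all 14636 entries.

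The difference of the EtOH response between lines passed for 2 of 51 factors, 1 higher (2.97% of all entries) and 1 lower (2.34%) in SUDHL-2, with 5.31% of all entries called. They were EIF5A (log2 difference 1.44, SE 0.19, adjusted p = 0.00264) and EIF4G2 (log2 difference -0.64, SE 0.15, adjusted p = 0.0335), the second as the mean of its 3 probes. The EIF4G2 difference was lost without any one of 8 of the 11 arrays (highest adjusted p = 0.125), and that of EIF5A held without each.

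Set against each other in 1 fit of all 23 arrays, the responses to EtOH and INK128 differed for 4 of 51 factors in SUDHL-2, where 6.20% of all entries were called, 3 higher with EtOH (2.69%) and 1 lower (3.51%). In SUDHL-4 they differed for 8, where 9.25% of all entries were called, 7 higher (4.51%) and 1 lower (4.74%). In SUDHL-2 EIF5A (log2 difference 1.17, SE 0.20, adjusted p = 0.0013), EIF2S3 (log2 difference 0.59, SE 0.18, adjusted p = 0.0498) and EIF5B (log2 difference 0.51, SE 0.13, adjusted p = 0.0198) responded higher with EtOH and PAIP2 lower (log2 difference -0.98, SE 0.18, adjusted p = 0.00201). In SUDHL-4 EIF2B2 (log2 difference 0.78, SE 0.17, adjusted p = 0.00482), ETF1 (log2 difference 0.66, SE 0.17, adjusted p = 0.0175), EIF2S1 (log2 difference 0.65, SE 0.20, adjusted p = 0.0459) and EIF3K (log2 difference 0.64, SE 0.15, adjusted p = 0.00877) were higher with EtOH. EIF2S2, GSPT1 and EIF5B were higher there as well, by 0.55, 0.51 and 0.49, and EIF4B was lower (log2 difference -0.68, SE 0.15, adjusted p = 0.00612). EIF5B was the 1 factor called in both lines. Without 1 array in turn EIF2S3 was lost in 20 of 23 fits, EIF2S1 in 15 and GSPT1 in 7. Agent, exposure time and vehicle cannot be told apart in these differences.

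The lines themselves differed for most factors, with more of them lower in SUDHL-2. With DMSO 33 of 51 factors differed (56.1% of all entries), 13 higher in SUDHL-2 (26.9%) and 20 lower (29.1%). With water 29 differed (65.9% of all entries), 5 higher (27.5%) and 24 lower (38.3%). The total shares of factors called lie near those of all entries. The median log2 difference of the factors was -0.13 with DMSO and -0.25 with water, beside -0.08 and -0.11 over all entries.

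**Figure D4:**
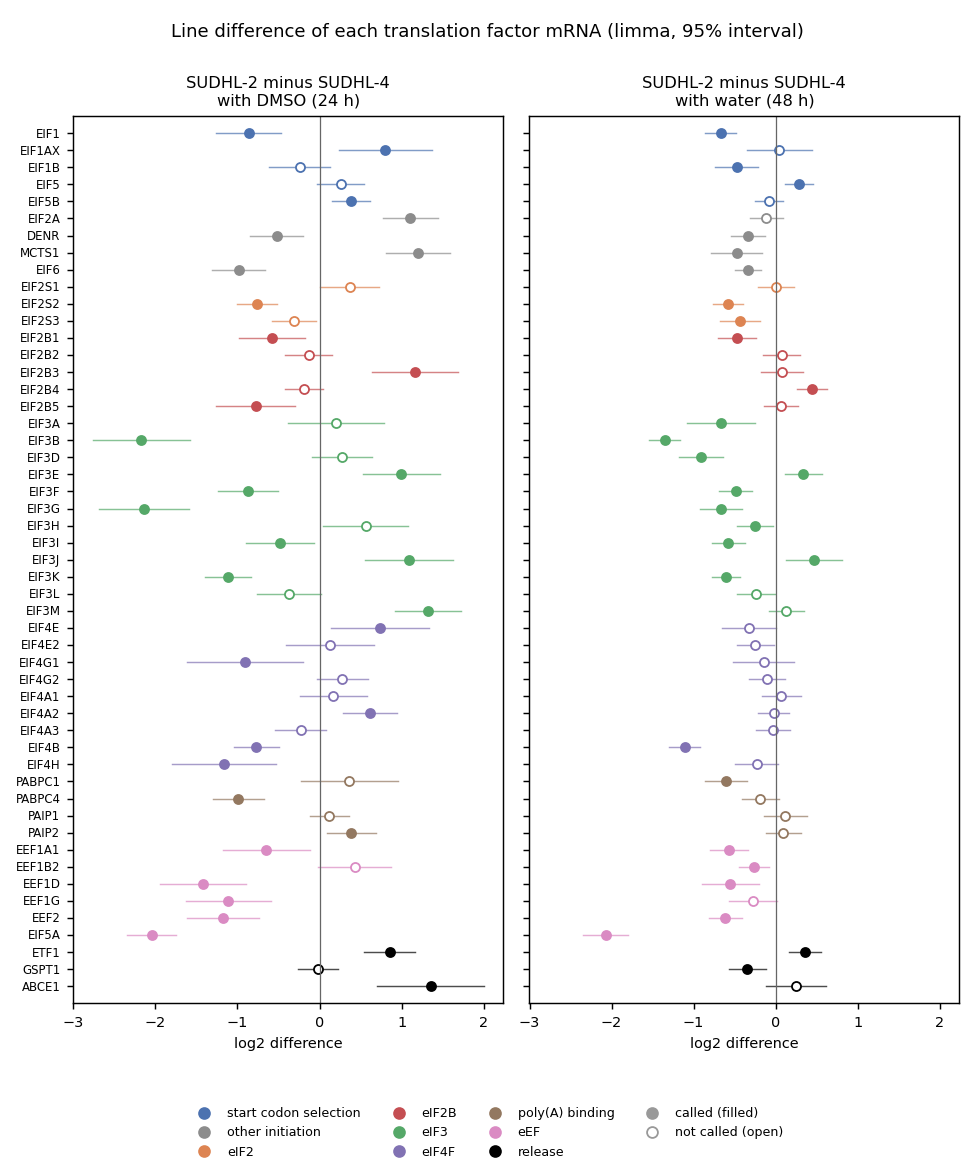
Log2 difference of each of the 51 translation factors between SUDHL-2 and SUDHL-4 (x axis, SUDHL-2 minus SUDHL-4, limma, with its 95% interval) on the DMSO arrays and on the water arrays, coloured by complex and filled where called. EIF5A lies near -2 in both control groups, 5 of the 6 elongation factors are called lower in each, and EIF2A and EIF3M are called higher with DMSO and not called with water.

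EIF5A stood out, with a level of 1.04 ± 0.05 in SUDHL-2 against 3.08 ± 0.16 in SUDHL-4 with DMSO (SD, n = 3 each), a log2 difference of -2.04 (limma, adjusted p = 8.25e-08). With water it read 1.24 ± 0.16 in SUDHL-2 and 3.31 ± 0.06 in SUDHL-4 (log2 difference -2.07, SE 0.13, adjusted p = 6.47e-08). The line with the lower level of EIF5A is the one in which it rose with EtOH. The same SUDHL-2 water arrays enter both values, and a link between them was not tested. EIF3B, the RNA-binding platform of eIF3, read 2.81, 2.64 and 2.79 on the SUDHL-2 DMSO arrays, against 4.80, 5.13 and 4.83 on those of SUDHL-4 (log2 difference -2.17, SE 0.27, adjusted p = 2.24e-05), and with water it was lower, at -1.35 (adjusted p = 9.84e-08). EIF3G, its partner in eIF3, differed by -2.14 with DMSO and -0.66 with water, and EEF1D, an exchange factor of EEF1A1, by -1.42 and -0.56. EIF4B was lower in SUDHL-2 in both controls, at -0.77 and -1.11, and EIF3D, a cap-binding subunit of eIF3, differed by -0.91 with water (adjusted p = 5.9e-05) and 0.27 with DMSO (adjusted p = 0.194).

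Higher in SUDHL-2 with DMSO were ABCE1 (log2 difference 1.35, SE 0.30, adjusted p = 0.00176), EIF3M, a core subunit of eIF3 (log2 difference 1.32, SE 0.19, adjusted p = 5.69e-05), MCTS1, which acts in reinitiation (log2 difference 1.20, SE 0.18, adjusted p = 9.7e-05), and EIF2B3 (log2 difference 1.16, SE 0.24, adjusted p = 0.00116). None of these 4 was called higher with water: ABCE1 had 0.24 (adjusted p = 0.215), EIF3M 0.13 (adjusted p = 0.254) and EIF2B3 0.08 (adjusted p = 0.564), and MCTS1 was lower in SUDHL-2 there, at -0.48 (adjusted p = 0.0132). With water the 4 largest of the 5 higher factors were EIF3J, loosely bound to eIF3, at 0.47 (adjusted p = 0.0216), EIF2B4 at 0.44 (adjusted p = 0.000915), ETF1 at 0.36 (adjusted p = 0.0051) and EIF3E, a subunit of the eIF3 core, at 0.34 (adjusted p = 0.0127). Without 1 of the 11 arrays in turn EIF3J was lost in 3 fits and EIF3E in 1. EIF3J, ETF1 and EIF3E were called higher with DMSO as well, at 1.09, 0.86 and 1.00. The controls differ in vehicle and in hours of culture, which cannot be told apart.

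Among the factors followed in every comparison, EEF2 and EEF1A1 were lower in SUDHL-2 with either control, EEF2 at -1.18 (adjusted p = 0.000298) with DMSO and -0.61 (adjusted p = 0.000136) with water, and EEF1A1 at -0.65 (adjusted p = 0.038) and -0.57 (adjusted p = 0.000794). EIF4E and EIF4A2 were higher in SUDHL-2 with DMSO alone, at 0.73 (adjusted p = 0.0362) and 0.61 (adjusted p = 0.00375), beside -0.32 (adjusted p = 0.0779) and -0.03 (adjusted p = 0.812) with water. EIF4G1 was lower with DMSO alone, at -0.90 (adjusted p = 0.0309), beside -0.15 (adjusted p = 0.462) with water, and PABPC1 was lower with water alone, at -0.61 (adjusted p = 0.000841), beside 0.36 (adjusted p = 0.288) with DMSO. EIF4A1 and EIF2S1 were called with neither, at 0.17 and 0.37 with DMSO. Whether the line differences differ between the controls was not tested.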

How the data were processed

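The 23 arrays were grouped by the sample labels. The authors exported them with GenomeStudio 1.9.0, per the labels, and deposited a signal intensity without normalization and a detection p-value for each of 47323 probes, of which 92 had no values. The score values the authors deposited in a second file hold, as checked on the values, log signals brought to a Z-score within the array over all probes, and served as an alternative. Different HumanHT-12 versions stand in the methods and in the labels. Whether the background was corrected is not given in the sources used.

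Of the probes 18136 met the detection rule, a p of 0.02 or less on all arrays of 1 group or more. Deposited intensities below the lowest detected signal of their array (59.4 to 91.4) were set to it. The log2 values of each array were scaled to mean 0 and a shared SD of 2.03, the mean over arrays, and probes with the same symbol were averaged (20 factors had over 1 probe). Probes without a single symbol (4090) stayed entries of their own. limma 3.58.1 (R 4.3.3) was run on the INK128 experiment (12 arrays) and the EtOH experiment (11) apart, and on all 23 together for EtOH against INK128, with eBayes and Benjamini-Hochberg adjustment over the 14636 entries. The scripts were tested on simulated data. The plots came from Python 3.11.15 and matplotlib 3.10.9. The number of arrays limits the precision.

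The factors, regulators and tests were chosen with earlier results of these data known. The rule for named genes took, per treatment comparison, the 6 called factors with the largest change each way, 8 factors in every comparison (EIF4E, EIF4G1, EIF4A1, EIF4A2, EIF2S1, EEF1A1, EEF2 and PABPC1), factors whose probes took opposite signs with 1 called, the 4 largest differences each way between lines or agents, and the 3 called regulators with the smallest p. Values of every array are given for the first 2 kinds. Other factors were named after their values were seen. Motifs and start sequences came from RefSeq promoter windows of 300 bases, 250 before and 50 after the start (GRCh38.p14), matched by symbol.

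Pairing was read from the replicate numbers in the titles, through the correlation of the deviations that arrays of the same number showed from their groups. It was 0.42 and 0.55 for EtOH with water in SUDHL-2, and 0.39, 0.19 and 0.14 in the other line. With the numbers of the sample names the SUDHL-4 values were 0.39, 0.04 and 0.25. The 2 EtOH arrays of SUDHL-2 deviate from their mean by equal and opposite amounts, so their 2 values are not independent. Whether these arrays are pairs is thus not settled by the data, no label gives it, and the main tests used no block. With INK128 some were below 0. Alternatives were other scalings, normexp correction (offset 16), other detection rules, other ways to join probes, other arrays in the fit, replicate blocks, other tests, the study's own thresholds, and leaving out each array. Array weights and leaving out both SUDHL-2 arrays numbered 1 were added after seeing the data.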

Additional observations from a re-analysis of the deposited data

Results flagged for a closer look

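Among the translation factors 2 had an EtOH response that differed between the lines by limma's test of the difference itself. For EIF5A the response in SUDHL-2 exceeded that in SUDHL-4 by 1.44 on the log2 scale (SE 0.19, adjusted p = 0.00264), from 1.21 in SUDHL-2 against -0.23 in SUDHL-4. For EIF4G2 the difference was -0.64 (SE 0.15, adjusted p = 0.0335), from -0.78 in SUDHL-2 against -0.14 in SUDHL-4. In SUDHL-2 1 of its 3 probes was called. EIF5A is measured by 1 probe, and SUDHL-2 with EtOH has 2 arrays. Groups of 3 or fewer arrays are too small for a test of a single outlying array, so none was run.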

How the results depend on the processing

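The treatment calls rest on 2 or 3 arrays a group, and 31 of the 51 factors on 1 probe. Under every alternative the calls that could be compared kept their direction, and the counts of called factors that moved by over 1.5 times are given here; the cause was not tested. For INK128 in SUDHL-2 (4 called, median -0.21) the count was 0 with median centring or the line alone, 1 with normexp or with eBayes trend and robust, 2 with probes detected on all 23 arrays, 9 with all 23 arrays in 1 fit and 10 with the study's thresholds. Its median was -0.183 with quantile normalization, -0.302 with median centring and -0.178 with no detection filter. For INK128 in SUDHL-4 (11 called, median -0.15) the count was 7 with trend and robust and 7 with the study's thresholds, and the median was -0.322 with median centring. For EtOH in SUDHL-2 (4 called) the count was 2 with no detection filter, 2 with all 23 arrays and 9 with each probe apart, and for EtOH in SUDHL-4 (0) it was 1 with the study's thresholds. The line difference of the INK128 response (0) gave 3 with quantile normalization, 2 with each probe apart, 6 with all 23 arrays and 5 with the study's thresholds. That of the EtOH response (2) gave 1 with quantile normalization, no filter, the deposited Z-score table, the brightest probe or all 23 arrays, and 4 with the study's thresholds. The lines differed for 3 factors with DMSO (33) and 2 with water (29) under the study's thresholds, which need a large change. The EtOH minus INK128 difference in SUDHL-2 (4) gave 2 with normexp, probes detected on all arrays, or trend and robust.

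With a replicate block of either numbering 2 factors were called for INK128 in SUDHL-2 (EIF2B4 and EIF5B were lost, adjusted p = 0.0865 and 0.0649), 1 for the line difference of the INK128 response (EIF3A, -1.08, adjusted p = 0.019) and 2 for EtOH minus INK128 in SUDHL-2, where EIF2S3 and EIF5B were lost. In the INK128 arrays the numbers did not pair the samples. With the title numbers EIF4A2 was lost (adjusted p = 0.0702) and EIF3A and EIF4E2 were gained for INK128 in SUDHL-4, EEF1D and EIF3H were gained for EtOH in SUDHL-2, and EIF4G1 was gained in the line difference of the EtOH response. EIF2B3 was gained for EtOH minus INK128 in SUDHL-4, and between the lines with water EIF3H was lost and EIF4E2 gained. With the numbers of the sample names the EtOH line difference gave 5 factors. PABPC1 turned to -0.022 for EtOH in SUDHL-2 with either block.

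Other changes of sign were all of uncalled factors. For INK128 in SUDHL-2 quantile normalization gave -0.043 for EEF1A1, -0.054 for EIF4A1 and -0.119 for EIF4A2. Median centring gave -0.074 for EIF4A1 and -0.162 for EIF4A2, probes detected on all arrays gave -0.017 for EIF4A2, and the brightest probe gave 0.107 for PABPC1. For INK128 in SUDHL-4 EIF4E was -0.029 with quantile normalization, and the brightest probe gave 0.058 for EIF4A1 and -0.105 for PABPC1. For EtOH in SUDHL-2 median centring gave 0.034 for EEF1A1, 0.043 for EEF2, 0.061 for EIF4A1 and 0.036 for EIF4A2. The deposited Z-score table gave 0.002 for EIF4A1, and the brightest probe gave 0.041 for EEF1A1, 0.062 for EIF4A1 and -0.05 for PABPC1.

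Leaving out 1 array moved the called count for INK128 in SUDHL-2 between 0 (without SUDHL-2 DMSO replicate 2 or 3) and 5 (without SUDHL-2 INK128 replicate 1), and its median between -0.262 and -0.107. For INK128 in SUDHL-4 the count was 6 (without SUDHL-4 DMSO replicate 3) to 13 and the median -0.208 to -0.092. For EtOH in SUDHL-2 the count was 2 (without SUDHL-2 EtOH replicate 2) to 6. The line difference gave 0 to 4 factors for INK128 and 1 to 4 for EtOH, and EtOH minus INK128 gave 2 to 6 in SUDHL-2 and, for SUDHL-4, 5 to 10. Single factors that changed sign were EIF4A1 (-0.15 to 0.241), EIF4A2 (-0.157 to 0.107), EIF4G1 (-0.69 to 0.183) and PABPC1 (-0.342 to 0.194) for INK128 in SUDHL-2, and EIF4E (-0.186 to 0.184) for INK128 in SUDHL-4. With EtOH in SUDHL-2 they were EEF2 (-0.222 to 0.053), EIF2S1 (-0.166 to 0.02), EIF4A1 (-0.191 to 0) and PABPC1 (-0.191 to 0.213), and in SUDHL-4 PABPC1 (-0.069 to 0.027). EIF2B2, EIF2S2, EIF3K, EIF5A, EIF5B and GSPT1 kept their call for INK128 in SUDHL-4 without each array, as did EIF5A and EIF4G2 for EtOH in SUDHL-2.

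Chosen after seeing the data, array weights ran from 0.126 to 43.7 in the INK128 experiment, 0.159 to 3.56 in the EtOH experiment and 0.0931 to 138 over all 23 arrays, so that 1 array can carry a group. Their estimate converged for the EtOH arrays alone, and the counts from the other weights are not reliable. The weights gave 42 and 26 called factors for INK128 in SUDHL-2 (median -0.171) and SUDHL-4, 7 and 2 for EtOH, 25 and 4 for the line differences of INK128 and EtOH, and 26 and 22 for EtOH minus INK128. EIF4A2 (-0.138) and PABPC1 (0.091) turned for INK128 in SUDHL-2, EIF4E (-0.164) in SUDHL-4 and EIF2S1 (0.072) for EtOH in SUDHL-2. Without both SUDHL-2 arrays numbered 1, also chosen after seeing the data, the INK128 median was -0.171, EIF4A1 was -0.011, EIF4A2 -0.237 and EIF4G1 0.262, and the line difference gave 3 factors.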
